A study of Homo sapiens with 12 samples.

Results

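The RNA levels of 10 genes were followed after knockdown of GOT1, the cytosolic aspartate aminotransferase, in a pair of human pancreatic cancer cell lines. The genes were FOXO3, IRS2, PIK3R3, PIK3IP1, SESN1, SESN3, CCNG2, PDCD4, TP53INP1 and TXNIP, and they were matched by symbol among the 58721 genes of the deposited tables, each to 1 row. They were chosen as genes linked to FOXO activity, starvation and quiescence, and they were in part selected on the strong changes of TP53INP1, PDCD4 and PIK3R3 with knockdown in Pa-Tu-8902. Their changes in Pa-Tu-8902 are therefore described here with no test. The choice named no change in MIA PaCa-2, and that line is tested. Earlier results of these data were known when the genes were chosen, so these tests are not independent of the data. Each of the 4 groups held 3 libraries. The groups were Pa-Tu-8902 (labelled Tu8902) and MIA PaCa-2 (labelled MiaPaCa2), each untreated or given doxycycline (dox) for 5 days before RNA extraction. All 4 groups carried the same kind of stable Tet-pLKO-puro lentiviral construct, in which dox turns on a short hairpin RNA against GOT1 (iDox-shGOT1), and all grew in DMEM with serum. The labels give the dox concentration as 1 µM/mL and the study's methods give it in µg/mL. Each line was a stably transduced population selected with a drug, and the sources used here do not name the hairpin that was sequenced. No library had a non-targeting hairpin with dox, so an effect of dox and an effect of GOT1 loss cannot be told apart in these data. Nothing in the labels says that libraries of a group came from separate cultures, so the p-values measure the spread between these libraries, which may be technical.

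FOXO transcription factors are held in the cytoplasm when insulin or growth factors activate PI3K and AKT, and enter the nucleus when that signal falls. There they turn on genes of cell cycle exit, stress resistance, autophagy and nutrient sparing, as well as genes that raise or damp the insulin signal itself. TXNIP, the sestrins, TP53INP1 and cyclin G2 also answer to p53, to MondoA, to glucose or to amino acid supply, so a change in one of them does not name a factor.

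The libraries held between 26226537 and 43406137 counts. GOT1 was the check of the labels. In Pa-Tu-8902 it fell from 4184 ± 297 to 168 ± 23.1 normalized counts (SD, n = 3; adjusted p = 1.51e-09), and in MIA PaCa-2 from 2198 ± 134 to 79.8 ± 13.8 (SD, n = 3; adjusted p = 1.06e-09). Keratins 8, 18 and 19 were high in both lines. KRT7 was not, at 1282 TPM in untreated Pa-Tu-8902 and 0.42 TPM in untreated MIA PaCa-2. MUC1 averaged 69.8 and 10.0 TPM in these groups. EPCAM averaged 548 TPM and CDH1 65.3 TPM in untreated Pa-Tu-8902, against 0.14 and 0.01 TPM in untreated MIA PaCa-2, so these epithelial markers were near 0 in the latter line. TPM is a level corrected for transcript length and library size. None of 6 acinar and endocrine markers and none of the endothelial markers averaged 1 TPM in any group. CD68, of the immune markers, and COL1A1 or COL1A2, of the stromal markers, did. COL1A1 averaged 4.5 TPM without dox and 19.6 TPM with it in Pa-Tu-8902. COL1A2 averaged 226 and 372 TPM in MIA PaCa-2.

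A call below means a Benjamini-Hochberg adjusted p under 0.01 and a change of at least 1.5-fold in edgeR's quasi-likelihood fit over all genes with enough counts. In Pa-Tu-8902, 7 of the 10 genes were past these thresholds, 5 higher and 2 lower with dox, where 16.3% of the 14949 genes tested were called (9.22% higher and 7.12% lower). The libraries with and without dox did not overlap for any of the 10 genes, where 58.5% of all genes tested did not overlap. The choice of the genes used this contrast, so nothing is read from those counts. In MIA PaCa-2, 2 of the 9 genes with enough counts were called, PDCD4 higher and FOXO3 lower, where 12% of 14589 genes were called (4.36% higher and 7.64% lower). Libraries of the untreated and dox groups did not overlap for 5 of the 9, where 52.9% of all genes tested did not overlap. PIK3IP1, 1 of the 9 and of the 5, had enough counts only through the untreated group where it was high, so these counts are a description. The median log2 fold change of the genes was 0.63 in Pa-Tu-8902, beside 0.0014 over all genes tested there. It was -0.09 in MIA PaCa-2, beside -0.0089 over all genes. Whether the changes of the 10 genes differed between the lines was not tested, so the values of each line stand side by side below.

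**Figure D1:**
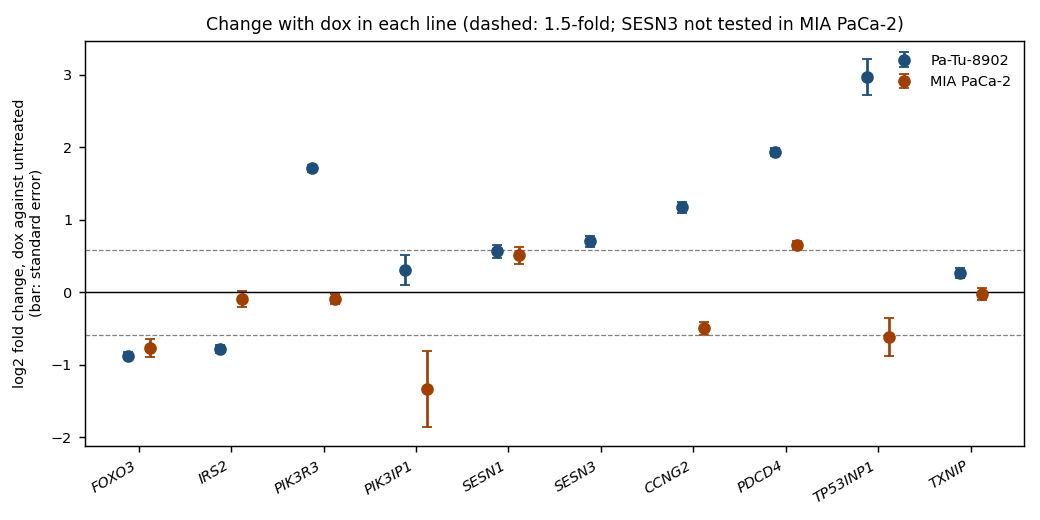
Log2 fold change with dox (vertical axis) of the 10 genes (horizontal axis) in Pa-Tu-8902 (blue) and MIA PaCa-2 (brown), with the standard error of the fit and dashed lines at 1.5-fold. FOXO3 lies below 0 and PDCD4 above 0 in both lines, whereas PIK3R3 is at 1.71 in the former line and -0.09 in the latter.

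FOXO3, the forkhead factor after which the group is named, was lower with dox in both lines. The gene lies on the plus strand of chromosome 6, from 108559835 to 108684774 (GRCh38). Its level in untreated Pa-Tu-8902 was 11.34, 11.62 and 9.94 TPM, and with dox 6.68, 5.99 and 6.35 TPM. Every dox library was below every untreated library, and the log2 fold change was -0.87 (SE 0.05), from 2022 ± 81.3 to 1105 ± 33.5 normalized counts. In MIA PaCa-2 the level was 2.92, 1.94 and 2.72 TPM without dox and 1.69, 1.62 and 1.27 TPM with it. The ranges again did not overlap, and the fall of 0.77 on the log2 scale (SE 0.12) passed the test (adjusted p = 5.38e-04). FOXO3 shares sequence with FOXO3B, a near-identical copy listed with 19.69 to 114.77 expected counts a library, so reads could have been split between them.

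Which FOXO3 transcript was counted differed between the lines more than with dox. FOXO3-202 made up 77.9% to 79.8% of the FOXO3 TPM in untreated Pa-Tu-8902 libraries and 71.8% to 79.8% with dox. In MIA PaCa-2 it made up 10.3% to 22.7% in untreated libraries and 0% to 19.7% in dox libraries, and FOXO3-201 made up the rest. Both transcripts carry the same 2019 coding bases, and their starts lie 1082 bases apart. FOXO3-202 averaged 8.66 TPM in untreated Pa-Tu-8902 and 4.86 TPM with dox. FOXO3-201, the transcript from the upstream start, averaged 2.30 and 1.47 TPM. In MIA PaCa-2, FOXO3-201 averaged 2.12 TPM without dox and 1.35 TPM with it. FOXO3-201 thus stood at a like level in both untreated lines, and the gap between the lines was that of FOXO3-202. These shares are RSEM's estimates for overlapping transcripts, and the difference between the lines was not tested. The share in MIA PaCa-2 did not pass a test of dox against untreated (two-sided exact permutation test, p = 0.8).

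The windows around the RefSeq start sites nearest to the FOXO3 transcripts are shown because the estimated shares of these transcripts differed between the lines. The use of the starts was not measured. The windows (GRCh38.p14) run from 250 bases before to 50 bases after the start, with the transcribed bases in capitals. The first start is 10 bases from that of FOXO3-201 and the second coincides with that of FOXO3-202.
FOXO3-201, chr6:108559575-108559874, plus strand: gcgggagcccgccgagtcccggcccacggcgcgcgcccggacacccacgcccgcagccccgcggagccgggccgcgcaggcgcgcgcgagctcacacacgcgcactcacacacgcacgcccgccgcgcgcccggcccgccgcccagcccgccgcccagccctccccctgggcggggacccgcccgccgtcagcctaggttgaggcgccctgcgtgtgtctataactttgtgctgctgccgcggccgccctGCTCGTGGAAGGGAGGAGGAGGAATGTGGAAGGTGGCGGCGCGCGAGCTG
FOXO3-202, chr6:108560667-108560966, plus strand: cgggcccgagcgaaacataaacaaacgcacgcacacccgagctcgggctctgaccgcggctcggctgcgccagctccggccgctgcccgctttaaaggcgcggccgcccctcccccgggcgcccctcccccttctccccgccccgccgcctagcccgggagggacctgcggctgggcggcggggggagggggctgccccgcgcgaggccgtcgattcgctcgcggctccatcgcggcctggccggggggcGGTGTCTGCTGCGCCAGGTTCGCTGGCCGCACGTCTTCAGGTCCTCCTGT

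Among the genes of insulin and PI3K signalling, IRS2, the adaptor that carries the signal from the insulin and IGF1 receptors to PI3K, was lower with dox in Pa-Tu-8902. Its untreated libraries stood at 12.09, 13.77 and 11.93 TPM and its dox libraries at 7.62, 7.42 and 8.25 TPM. The groups did not overlap, and the log2 fold change was -0.78 (SE 0.06). In MIA PaCa-2 the level of IRS2 was 1.36, 1.06 and 1.5 TPM without dox and 1.37, 1.26 and 1.15 TPM with it. These ranges overlapped, and the log2 fold change of -0.09 (SE 0.11) did not pass the test (adjusted p = 0.546). IRS2 is on chromosome 13, minus strand, 109752695 to 109786583.

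PIK3R3, the p55-gamma regulatory subunit of class I PI3K, showed, after TP53INP1, the widest gap between the changes in the lines. It lies on chromosome 1, minus strand, 46040140 to 46133036. In Pa-Tu-8902 it stood at 5.70, 6.90 and 5.44 TPM without dox and 23.17, 22.99 and 19.80 TPM with dox, from 748 ± 9.06 to 2453 ± 42.2 normalized counts (log2 fold change 1.71, SE 0.05). All dox libraries were far above all untreated ones. In MIA PaCa-2 it stood at 19.47, 13.93 and 17.80 TPM without dox, already near the dox level of Pa-Tu-8902, and at 18.10, 17.52 and 15.40 TPM with dox. There the ranges overlapped and the log2 fold change was -0.09 (SE 0.07, adjusted p = 0.342).

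The PIK3R3 transcripts PIK3R3-201 and PIK3R3-202, whose coding length is the same 1383 bases, were both estimated higher with dox in Pa-Tu-8902. PIK3R3-201 averaged 3.25 TPM without dox and 10.7 TPM with it, and PIK3R3-202 averaged 2.20 and 7.64 TPM. The share of PIK3R3-201 overlapped between the groups in that line. In MIA PaCa-2 its share was 43.0% to 52.3% in untreated libraries against 38.6% to 41.7% in those given dox (two-sided exact permutation test, p = 0.1, which is as small as 3 against 3 libraries allow; adjusted p = 0.3 over the 6 genes tested).

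PIK3IP1, a membrane protein that binds the PI3K catalytic subunit and restrains it, was the least abundant of this group. It lies on chromosome 22, minus strand, 31281594 to 31292534. In Pa-Tu-8902 its level was 0.76, 0.66 and 0.55 TPM without dox and 0.72, 0.88 and 0.85 TPM with it. By normalized counts the groups did not overlap (36.9 ± 2.77 and 45.7 ± 5.25), by TPM they did, and the log2 fold change was 0.31 (SE 0.21). In MIA PaCa-2 the level was 0.33, 0.37 and 0.25 TPM without dox and 0.02, 0.18 and 0.15 TPM with dox. The dox libraries were all lower, on 13.9 ± 2.40 and 5.45 ± 4.08 normalized counts, and the log2 fold change was -1.34 (SE 0.52). The untreated libraries alone brought the gene past the filter on low counts there, so this value is a description and it is not a call.

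**Figure D2:**
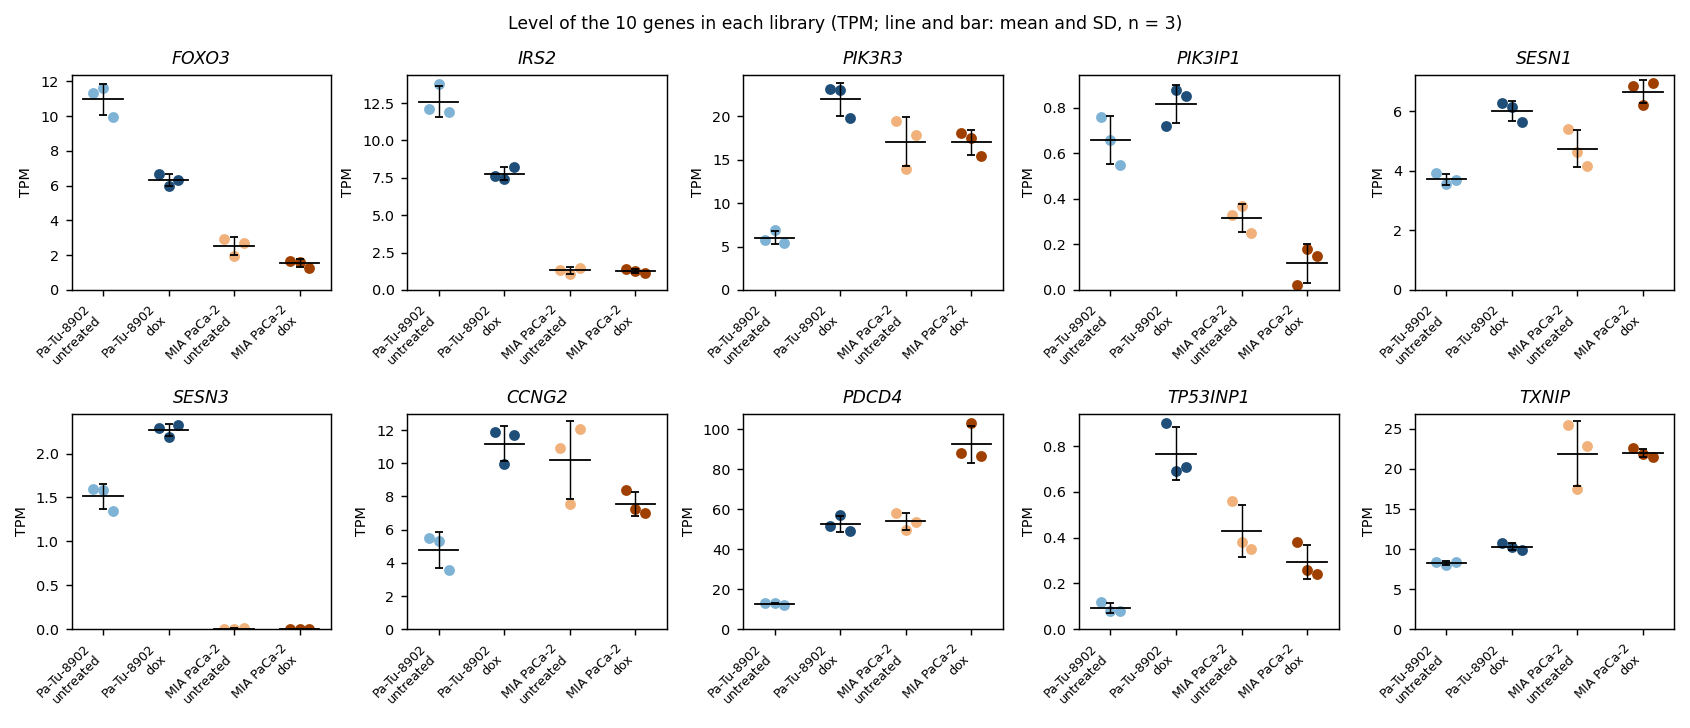
TPM (vertical axes, each from 0) of the 10 genes in the 4 groups (horizontal axes), with 1 point for each library and the mean and SD of 3 libraries. PDCD4, PIK3R3 and CCNG2 in Pa-Tu-8902 with dox lie at or near their untreated level in MIA PaCa-2, and SESN3 lies at or near 0 in all 6 MIA PaCa-2 libraries.

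The sestrins restrain mTORC1 through the GATOR complexes when amino acids or energy are short, and they also act against oxidative stress. SESN1, a classical p53 target, is on chromosome 6, minus strand, 108984309 to 109094846. In Pa-Tu-8902 its level was 3.92, 3.55 and 3.70 TPM without dox and 6.27, 6.14 and 5.65 TPM with dox. The groups did not overlap, and the log2 fold change of 0.56 (SE 0.09) was a fold of 1.48, just under the limit of 1.5. It was 0.62 without the third dox or the first untreated library and with effective lengths as offsets, past that limit, and 8 of the 10 genes were past the thresholds without either of those libraries. In MIA PaCa-2 its level was 5.42, 4.65 and 4.18 TPM without dox and 6.85, 6.21 and 6.94 TPM with dox. All dox libraries were higher there too. The log2 fold change of 0.51 (SE 0.11) had an adjusted p of 0.00416 but, at 1.42-fold, was under the fold limit and is not a call.

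The SESN1 transcripts that were higher with dox differed between the lines. SESN1-204 starts 85291 bases upstream of SESN1-202 and has 1653 coding bases against 1476, with 9 of the 10 coding exons of each shared. In Pa-Tu-8902 the shorter SESN1-202 stood at 0.71, 1.03 and 1.51 TPM without dox and 3.04, 3.31 and 2.31 TPM with it. SESN1-204 stood at 2.99, 2.37 and 1.85 TPM and at 3.16, 2.42 and 3.03 TPM, with overlap. In MIA PaCa-2 it was SESN1-204 that separated the groups, with 3.16, 2.31 and 2.17 TPM without dox and 4.97, 4.06 and 4.41 TPM with it. SESN1-202 overlapped there, with 1.60, 2.34 and 1.93 TPM and then 1.87, 2.06 and 2.53 TPM. The share of SESN1-204 in MIA PaCa-2 went from 49.7% to 58.3% in untreated libraries to between 63.5% and 72.7% in dox libraries. That difference had the smallest p that the design allows (two-sided exact permutation test, p = 0.1; adjusted p = 0.3 over the 6 genes tested). In Pa-Tu-8902 the share was 50% to 76.5% and then 39.4% to 53.6%, with overlap. The difference between the lines was not tested.

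The windows around both SESN1 starts are shown for this reason, with the transcribed bases in capitals (RefSeq, GRCh38.p14). The first coincides with the start of SESN1-204 and the second is 3 bases from that of SESN1-202.
SESN1-204, chr6:109094797-109095096, minus strand: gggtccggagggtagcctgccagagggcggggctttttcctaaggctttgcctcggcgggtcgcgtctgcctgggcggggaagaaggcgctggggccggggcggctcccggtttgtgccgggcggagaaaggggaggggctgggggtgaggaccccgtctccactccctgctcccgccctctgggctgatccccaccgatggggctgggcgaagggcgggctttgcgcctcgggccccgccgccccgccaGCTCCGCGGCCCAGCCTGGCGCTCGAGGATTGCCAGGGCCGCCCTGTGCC
SESN1-202, chr6:109009503-109009802, minus strand: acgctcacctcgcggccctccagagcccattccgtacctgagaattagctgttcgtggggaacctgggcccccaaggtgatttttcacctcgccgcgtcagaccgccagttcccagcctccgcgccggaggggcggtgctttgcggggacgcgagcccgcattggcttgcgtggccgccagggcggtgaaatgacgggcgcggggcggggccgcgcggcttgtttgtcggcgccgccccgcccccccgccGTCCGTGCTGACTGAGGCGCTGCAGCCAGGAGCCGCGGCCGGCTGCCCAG

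**Figure D3:**
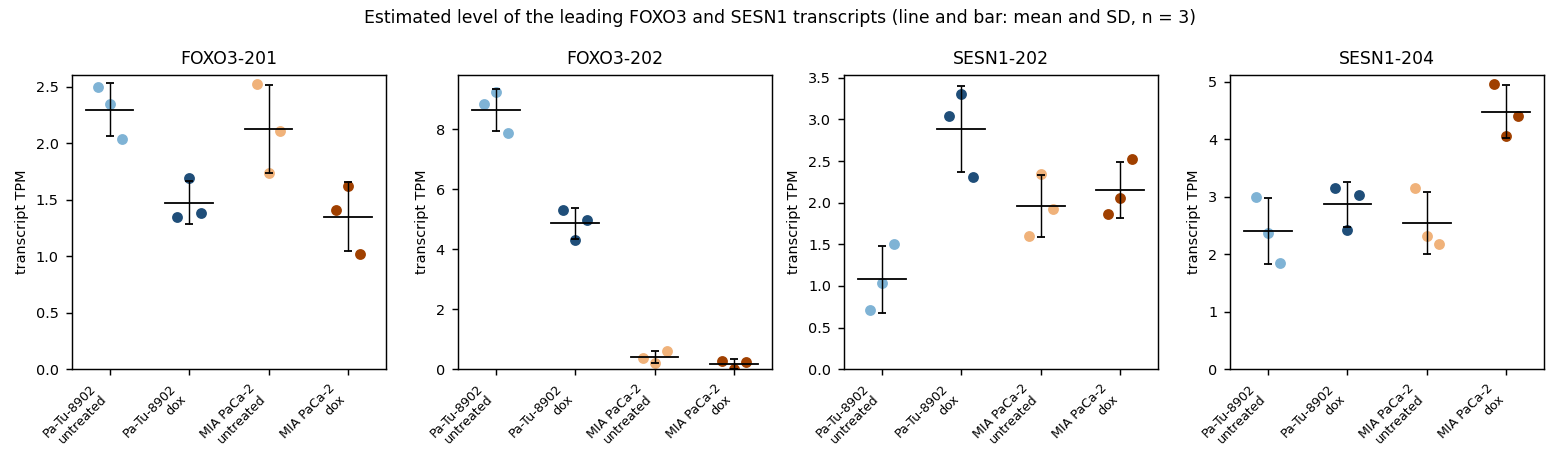
Estimated TPM (vertical axes, each from 0) of FOXO3-201, FOXO3-202, SESN1-202 and SESN1-204 in the 4 groups (horizontal axes), with 1 point for each library and the mean and SD of 3 libraries. FOXO3-202 averaged 8.66 TPM in untreated Pa-Tu-8902 and 0.403 TPM in untreated MIA PaCa-2, and SESN1-202 with dox separated from untreated in Pa-Tu-8902 whereas SESN1-204 did so in MIA PaCa-2.

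SESN3, the sestrin best known as a FOXO target, was expressed in Pa-Tu-8902, whereas MIA PaCa-2 was at the limit of detection. It is on chromosome 11, minus strand, 95165513 to 95232541. In Pa-Tu-8902 its level was 1.60, 1.59 and 1.35 TPM without dox and 2.29, 2.19 and 2.32 TPM with dox, from 313 ± 6.20 to 510 ± 6.77 normalized counts. The groups did not overlap, and the log2 fold change was 0.71 (SE 0.08), or 0.51 with RSEM's effective gene lengths as offsets in the fit, which is under the fold limit. In MIA PaCa-2 the 6 libraries held 0, 0 and 3 counts without dox and 0 counts each with dox, so no change with dox was detectable there. A limit of 3 counts corresponded to 0.0691 to 0.114 CPM (library-scaled counts) across the libraries, and covers counting error only.

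CCNG2, cyclin G2, is an atypical cyclin associated with cell cycle arrest rather than progression. It is on chromosome 4, plus strand, 77157207 to 77433388. In Pa-Tu-8902 it stood at 5.47, 5.30 and 3.55 TPM without dox and 11.88, 9.96 and 11.68 TPM with dox. The groups were well apart, and the log2 fold change was 1.17 (SE 0.08) on 270 ± 14.0 and 609 ± 13.5 normalized counts. In MIA PaCa-2 it stood at 10.91, 7.56 and 12.08 TPM without dox and 8.37, 7.23 and 7.02 TPM with dox. Normalized counts of 583 ± 34.5 and 413 ± 27.5 did not overlap, whereas TPM did. The log2 fold change of -0.50 (SE 0.09) had an adjusted p of 8.05e-04 but, at 1.41-fold, was under the fold limit and is not a call.

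TXNIP, the alpha-arrestin that binds thioredoxin and limits glucose uptake, moved little. It is on chromosome 1, minus strand, 145992435 to 145996579. In Pa-Tu-8902 its level was 8.36, 8.02 and 8.38 TPM without dox and 10.70, 10.28 and 9.86 TPM with dox. The groups did not overlap, but the log2 fold change was 0.27 (SE 0.07), under the fold limit. In MIA PaCa-2 it stood at 25.42, 17.44 and 22.83 TPM without dox and 22.59, 21.82 and 21.53 TPM with dox. The dox range lay inside the untreated range, and the log2 fold change of -0.03 (SE 0.08, adjusted p = 0.817) had no stable sign, at 0.062 without the first untreated MIA PaCa-2 library.

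RefSeq start windows were on hand for 9 of the 10 genes, 21 windows in all. They were searched on both strands for the letters GTAAACA, a core FOXO recognition sequence, and for CACGTG, the palindromic E-box core read by MondoA partners and other factors; these letters do not overlap each other. GTAAACA was in 3.42% and CACGTG in 7.26% of all 35116 windows of this length. GTAAACA was found in 1 window each of TXNIP (at -124 from the start) and PIK3IP1 (at 16), and CACGTG in 1 window of CCNG2 (at -30). The 3 windows are shown so that the matches, in capitals, can be seen. A match of letters is no evidence of binding, and a window without one says nothing about a factor.
TXNIP, chr1:145996530-145996829, minus strand: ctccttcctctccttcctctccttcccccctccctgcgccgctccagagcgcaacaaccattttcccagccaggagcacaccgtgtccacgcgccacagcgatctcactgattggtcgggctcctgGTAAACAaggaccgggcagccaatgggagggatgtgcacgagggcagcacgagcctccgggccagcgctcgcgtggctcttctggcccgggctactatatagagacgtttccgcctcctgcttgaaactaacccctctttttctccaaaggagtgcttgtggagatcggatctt
PIK3IP1, chr22:31292439-31292738, minus strand: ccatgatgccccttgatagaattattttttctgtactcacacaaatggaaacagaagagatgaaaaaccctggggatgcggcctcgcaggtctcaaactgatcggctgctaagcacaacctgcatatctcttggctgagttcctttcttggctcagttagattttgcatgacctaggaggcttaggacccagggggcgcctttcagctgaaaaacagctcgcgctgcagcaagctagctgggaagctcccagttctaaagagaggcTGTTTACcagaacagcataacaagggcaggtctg
CCNG2, chr4:77156957-77157256, plus strand: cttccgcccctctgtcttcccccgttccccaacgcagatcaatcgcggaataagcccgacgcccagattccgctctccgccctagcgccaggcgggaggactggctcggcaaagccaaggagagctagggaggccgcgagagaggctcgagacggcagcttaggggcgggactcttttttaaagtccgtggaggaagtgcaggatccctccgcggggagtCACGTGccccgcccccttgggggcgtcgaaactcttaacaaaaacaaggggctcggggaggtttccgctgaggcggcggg

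PDCD4 binds the helicase eIF4A and holds back translation, and it is destroyed after phosphorylation by S6 kinase. It had the highest mean TPM of the 10 genes in every group, with IRS2 overlapping it in untreated Pa-Tu-8902, and was higher with dox in both lines. It lies on chromosome 10, plus strand, 110871795 to 110900006. In Pa-Tu-8902 it stood at 12.91, 12.97 and 12.35 TPM without dox and 51.87, 57.08 and 49.19 TPM with dox, from 665 ± 37.2 to 2541 ± 52.1 normalized counts (log2 fold change 1.93, SE 0.06). The groups were far apart. In MIA PaCa-2 it stood at 58.37, 49.51 and 53.78 TPM without dox and 87.95, 103.18 and 86.41 TPM with dox. The groups did not overlap, and the rise of 0.65 on the log2 scale (SE 0.07) passed the test (adjusted p = 2.09e-05). The transcript shares of PDCD4 overlapped between the groups in both lines, with PDCD4-201 at 44% to 57.6% of the gene's TPM across the 12 libraries.

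The antisense gene PDCD4-AS1 averaged 10.7 counts in untreated Pa-Tu-8902 and 37.0 with dox, and 23.3 and 29.7 in MIA PaCa-2. BBIP1, also on the opposite strand, averaged 181 and 264 counts in Pa-Tu-8902 without and with dox, and 386 and 350 in MIA PaCa-2. The library kit kept strand, but the strand setting of the counting is not given in the sources used here, so reads of PDCD4 and of these partners cannot be told apart with certainty.

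TP53INP1, a nuclear stress protein of the p53 pathway that also takes part in autophagy, had the steepest change with dox in Pa-Tu-8902 and a low level throughout. It lies on chromosome 8, minus strand, 94925972 to 94949378. In Pa-Tu-8902 it stood at 0.12, 0.08 and 0.08 TPM without dox and 0.90, 0.69 and 0.71 TPM with dox, from 12.9 ± 3.57 to 101 ± 13.2 normalized counts. The groups were far apart, and the log2 fold change was 2.97 (SE 0.24). TP53INP1-201 was listed at 0 TPM in the 3 untreated Pa-Tu-8902 libraries and at 0.68, 0.53 and 0.37 TPM with dox. In MIA PaCa-2 the gene stood at 0.56, 0.38 and 0.35 TPM without dox and 0.38, 0.26 and 0.24 TPM with dox. The ranges overlapped there, and the log2 fold change of -0.61 (SE 0.26) did not pass the test (adjusted p = 0.0792). NDUFAF6 lies on the opposite strand of TP53INP1 with 161 to 878 counts. It averaged 791 counts without and 689 with dox in Pa-Tu-8902, and 225 and 199 in MIA PaCa-2. Whether reads were shared between them was not tested.

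The genes stood at different levels in the lines before any knockdown. This contrast uses the untreated Pa-Tu-8902 libraries that entered the choice of the genes, so it is described with no test. Past the thresholds were 9 of the 10 genes, where 58.1% of 15608 genes were called (28.9% higher and 29.3% lower in Pa-Tu-8902), and nothing is read from that count. The count includes SESN3, which had enough counts only through Pa-Tu-8902. Without any 1 of the untreated Pa-Tu-8902 libraries SESN3 fell under the filter on low counts, and the count was 8. Higher in untreated Pa-Tu-8902 were IRS2 by 3.24 on the log2 scale (SE 0.10), FOXO3 by 2.09 (SE 0.10) and PIK3IP1 by 1.26 (SE 0.29; 0.99 with effective lengths as offsets). SESN3 was at least 88.8-fold higher in its lowest untreated Pa-Tu-8902 library than the limit of 3 counts in a MIA PaCa-2 library. Lower in untreated Pa-Tu-8902 were TP53INP1 (log2 difference -2.26, SE 0.32), PDCD4 (-2.11, SE 0.08), PIK3R3 (-1.58, SE 0.08), TXNIP (-1.46, SE 0.10) and CCNG2 (-1.25, SE 0.10). SESN1 differed by -0.40 (SE 0.13). The median log2 difference was -0.82 over the 10 genes and -0.03 over all genes.

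Set side by side, the genes that stood low in untreated Pa-Tu-8902 came up to the untreated level of MIA PaCa-2 to different degrees. PDCD4 reached 49.19 to 57.08 TPM, overlapping the 49.51 to 58.37 TPM of untreated MIA PaCa-2, and CCNG2 reached 9.96 to 11.88 TPM, inside the 7.56 to 12.08 TPM of that group. PIK3R3 (19.80 to 23.17 TPM) and TP53INP1 (0.69 to 0.90 TPM) ended above the untreated MIA PaCa-2 libraries. TXNIP, at 9.86 to 10.70 TPM, stayed below them. These crossings were not tested.

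The genes whose levels followed the 3 leading genes most closely over the 12 libraries were found among 11660 genes with ample counts. For TP53INP1 they were MXD4 (Pearson r = 0.96 of log2 CPM) and SORBS2 (r = 0.96), for PDCD4 they were SLC30A1 (r = 0.997) and GALNS (r = 0.992), and for PIK3R3 they were ARSD (r = 0.991) and SCP2 (r = 0.986). The 12 points share line, treatment and library, so these values only describe likeness.

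The other known FOXO targets were read next, as a list of 38 genes beside the 10. This list and those below were chosen with earlier results of these data known. In Pa-Tu-8902, 20 of the 32 with enough counts were called, 16 higher and 4 lower, where 16.3% of all genes tested were called. The median log2 fold change was 0.51 beside 0.0014 over all genes. In MIA PaCa-2, 6 of 29 were called, 4 higher and 2 lower, where 12% of all genes tested were called. The median there was 0.24 beside -0.0089. TNFSF10, the death ligand TRAIL, stood in Pa-Tu-8902 at 4.49 ± 1.61 normalized counts without dox and 28.6 ± 1.88 with it (log2 fold change 2.67, SE 0.37). KLF15, a fasting-induced Krüppel-like factor, stood there at 3.53 ± 1.18 and 13.5 ± 3.66 (1.85, SE 0.47). Both are among the 16 higher but had enough counts only through the dox group where they were high, so these values are a description. GABARAPL1, an autophagosome protein, rose in both lines, by 1.74 (SE 0.07, adjusted p = 2.48e-08) in Pa-Tu-8902 and by 1.15 (SE 0.08, adjusted p = 1.36e-06) in MIA PaCa-2.

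CITED2, a transcriptional co-regulator, rose by 1.07 (SE 0.08, adjusted p = 1.81e-06) in Pa-Tu-8902 and by 1.54 (SE 0.10, adjusted p = 7.72e-07) in MIA PaCa-2. Not every target rose. IGFBP1, a secreted binder of insulin-like growth factors and a classical FOXO1 target in liver, fell by 1.44 (SE 0.16, adjusted p = 3.74e-05) in Pa-Tu-8902, and PRDX3, the mitochondrial peroxiredoxin, fell by 0.86 (SE 0.05, adjusted p = 4.00e-07). CDKN2D, the p19 inhibitor of CDK4 and CDK6, fell in both lines, by 0.79 in Pa-Tu-8902 (SE 0.07, adjusted p = 4.23e-06) and by 1.37 in MIA PaCa-2 (SE 0.10, adjusted p = 1.80e-06). ERBB3, the receptor HER3, fell by 0.88 in MIA PaCa-2 (SE 0.12, adjusted p = 2.18e-04), a call that was lost with effective lengths as offsets (adjusted p = 0.0196). A test of the difference between the lines called 10 of 32 of these targets, with the larger value in Pa-Tu-8902 for 8 and the smaller for 2, where 10.4% of 16544 genes were called. In bulk libraries, fewer cells carrying a transcript and less of it in each cell cannot be told apart.

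**Figure D4:**
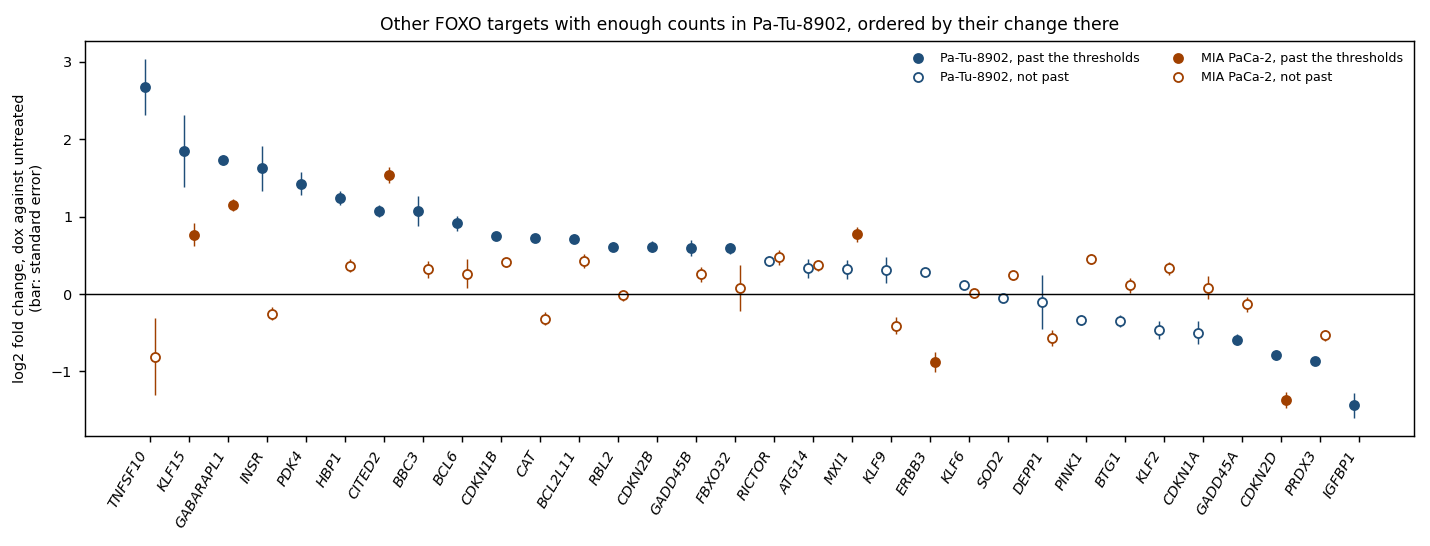
Log2 fold change with dox (vertical axis, with the standard error) of the 32 other FOXO targets with enough counts in Pa-Tu-8902 (horizontal axis, ordered by the change there), in Pa-Tu-8902 (blue) and MIA PaCa-2 (brown). Filled points are past the thresholds, 20 in blue and 6 in brown, and TNFSF10 at 2.67 and IGFBP1 at -1.44 are the ends of the range in Pa-Tu-8902. TNFSF10 and KLF15 had enough counts there only through the dox group, so their blue points are a description.

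The close relatives of the 10 genes did not all move with them. Of 12 paralogs, 10 had enough counts in each line, and 2 were called in Pa-Tu-8902, against 3 in MIA PaCa-2. These calls were 20% and 30% of those tested, beside 16.3% and 12% of all genes tested. In Pa-Tu-8902, FOXO4 rose from 42.1 ± 0.729 to 133 ± 11.0 normalized counts (log2 fold change 1.66, SE 0.15, adjusted p = 8.65e-06), the opposite direction to FOXO3. TP53INP2, the autophagy relative of TP53INP1, rose there by 0.68 (SE 0.10, adjusted p = 2.99e-04). In MIA PaCa-2, SESN2, the leucine-sensing sestrin, rose by 0.63 (SE 0.07, adjusted p = 4.41e-05; 0.58, under the fold limit, without the second untreated library), while CCNG1, the p53-induced cyclin G1, fell by 1.17 (SE 0.07, adjusted p = 3.32e-07) and PIK3R1, the main PI3K regulatory subunit, fell by 1.08 (SE 0.09, adjusted p = 3.37e-06). PIK3R2, IRS1, FOXO1, FOXO6 and FOXO3B were called in neither line, and IRS4 and ARRDC4 had too few counts. The difference between the lines was called for 4 of the 10, all with the larger value in Pa-Tu-8902, beside 10.4% of all genes.

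Of the 14 kinases, ligases and other proteins that control FOXO factors, 13 were tested in each line and 2 and 3 were called. These calls were 15.4% (Pa-Tu-8902) and 23.1% (MIA PaCa-2) of those tested, beside 16.3% and 12% of all genes tested. SGK3, a PI3K-dependent kinase related to AKT, rose in Pa-Tu-8902 by 0.77 (SE 0.05, adjusted p = 8.73e-07) and in MIA PaCa-2 by 1.34 (SE 0.13, adjusted p = 1.13e-05). STK3, the MST2 kinase, fell by 0.98 (SE 0.05, adjusted p = 2.27e-07) and by 0.93 (SE 0.08, adjusted p = 6.45e-06). SKP2, the F-box protein that marks p27 and FOXO1 for destruction, rose in MIA PaCa-2 by 0.62 (SE 0.06, adjusted p = 1.21e-05; 0.58, under the fold limit, without the third untreated library and 0.53 with effective lengths as offsets) and stood at -0.01 (SE 0.05, adjusted p = 0.933) in Pa-Tu-8902. The medians of the list were -0.14 (Pa-Tu-8902) and 0.09 (MIA PaCa-2). The difference between the lines was called for 1 of 13, beside 10.4% of all genes.

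In the chain from receptor to mTOR, 4 of 29 genes were called in Pa-Tu-8902, against 5 of 30 in MIA PaCa-2, with medians of 0.01 and 0.05. These calls were 13.8% and 16.7% of those tested, beside 16.3% and 12% of all genes tested. INSR, the insulin receptor, rose in Pa-Tu-8902 from 13.3 ± 3.27 to 40.8 ± 6.37 normalized counts (log2 fold change 1.62, SE 0.29, adjusted p = 8.72e-04) and stood at 1042 ± 103 and 874 ± 38.1 in MIA PaCa-2, where it was not called. With effective lengths as offsets its log2 fold change in Pa-Tu-8902 was 0.65 (adjusted p = 0.449), so that call rests on the setting. GAB1, a docking protein, rose in Pa-Tu-8902 by 0.87 (SE 0.13, adjusted p = 1.98e-04). TRIB3, a pseudokinase that binds AKT and is induced by amino acid stress, fell in both lines, by 0.68 (SE 0.10, adjusted p = 1.91e-04) and by 0.63 (SE 0.08, adjusted p = 9.60e-05). In MIA PaCa-2 the lipid phosphatase INPP4B rose by 0.70 (SE 0.09, adjusted p = 1.26e-04) and the AKT phosphatase PHLPP2 by 0.63 (SE 0.09, adjusted p = 1.66e-04). The receptor adaptor GRB10 fell there by 1.08 (SE 0.12, adjusted p = 3.35e-05). TRIB3 and PHLPP2 were close to the fold limit, and PHLPP2 stood at 0.57 with effective lengths as offsets. Without the second untreated MIA PaCa-2 library PHLPP2 stood at 0.52 and TRIB3 at -0.57, leaving 3 calls of the list there, and without the third untreated or the first dox library of Pa-Tu-8902 TRIB3 stood at -0.57. The difference between the lines was called for 6 of 30, beside 10.4% of all genes.

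Of the 15 proteins through which sestrins and amino acids reach mTORC1, 3 were called in Pa-Tu-8902, against 2 in MIA PaCa-2, with medians of 0.26 and 0.18. These calls were 20% and 13.3% of the list, beside 16.3% and 12% of all genes tested. CASTOR1, the arginine sensor, rose in Pa-Tu-8902 from 19.2 ± 8.11 to 56.0 ± 2.53 normalized counts (log2 fold change 1.55, SE 0.30, adjusted p = 0.00149), and KPTN of the KICSTOR complex rose by 0.64 (SE 0.08, adjusted p = 7.29e-05). SEH1L, a GATOR2 and nuclear pore subunit, fell by 1.09 (SE 0.05, adjusted p = 5.76e-08) in Pa-Tu-8902 and by 0.76 (SE 0.06, adjusted p = 4.47e-06) in MIA PaCa-2. Without the second untreated MIA PaCa-2 library, 1 gene of the list was called in that line. The difference between the lines was called for 1 of 15, beside 10.4% of all genes.

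Targets of p53 were called in both directions. In Pa-Tu-8902, 6 of 28 were called, 2 higher and 4 lower, with a median of -0.13. In MIA PaCa-2, 9 of 28 were called, 3 higher and 6 lower, with a median of -0.08. These calls were 21.4% and 32.1% of those tested, beside 16.3% and 12% of all genes tested. BBC3, the apoptosis activator PUMA, rose in Pa-Tu-8902 by 1.07 (SE 0.19, adjusted p = 8.63e-04), and ZMAT3, an RNA-binding p53 target, rose by 0.95 (SE 0.09, adjusted p = 7.54e-06). TP53I3 fell in both lines, by 0.98 (SE 0.08, adjusted p = 3.59e-06) and by 0.89 (SE 0.10, adjusted p = 3.78e-05), as did CYFIP2, by 0.96 (SE 0.08, adjusted p = 4.31e-06) and by 1.03 (SE 0.22, adjusted p = 0.00315). GDF15, a stress-induced cytokine and 1 of the 6 lower in MIA PaCa-2, stood there at 67.6 ± 2.47 normalized counts without dox and 11.3 ± 3.0 with it (log2 fold change -2.54, SE 0.26), values given as a description because the dox libraries alone would not have met the filter on low counts. The death receptors FAS and TNFRSF10B rose there, by 0.71 (SE 0.19, adjusted p = 0.00996) and by 0.68 (SE 0.06, adjusted p = 4.50e-06). FAS lost its call with a replicate block (adjusted p = 0.0103), with effective lengths as offsets (adjusted p = 0.0589) and without the first or the third library of either group (adjusted p 0.0277 to 0.0605), and CYFIP2 its call in MIA PaCa-2 with those offsets (adjusted p = 0.0251) and without the first untreated or the second or the third dox library (adjusted p 0.0111 to 0.0194). The difference between the lines was called for 6 of 28, beside 10.4% of all genes.

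Around TXNIP, the list of MondoA and MLX factors, other alpha-arrestins and thioredoxin partners had 2 calls of 11 in Pa-Tu-8902. That was 18.2% of those tested, beside 16.3% of all genes tested. ARRDC3, an alpha-arrestin, rose by 0.81 (SE 0.08, adjusted p = 1.72e-05) and NLRP3, an inflammasome sensor that TXNIP binds, fell by 1.49 (SE 0.12, adjusted p = 3.21e-06). In MIA PaCa-2 edgeR called 0 of 10 (4 at an unadjusted p under 0.05, and 0 by DESeq2), beside 12% of all genes. The list medians were 0.005 and -0.05, and the difference between the lines was called for 1 of 11, beside 10.4% of all genes.

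Around PDCD4, the 10 genes of the eIF4F helicase and of PDCD4 turnover had 0 calls by edgeR in either line (5 at an unadjusted p under 0.05 in each, and 0 by DESeq2). This stands beside 16.3% (Pa-Tu-8902) and 12% (MIA PaCa-2) of all genes tested. The difference between the lines was called for 0 of 10 (5 at an unadjusted p under 0.05, and 0 by DESeq2), beside 10.4% of all genes. Nothing is read from 0 calls among 10 genes. Their medians were -0.10 and -0.06. Of the 11 genes of the DREAM complex, which holds cell cycle genes silent in quiescent cells, 3 were called in Pa-Tu-8902. That was 27.3% of those tested, beside 16.3% of all genes tested. The pocket protein RBL2 rose by 0.61 (SE 0.06, adjusted p = 1.56e-05) and E2F5 by 0.64 (SE 0.06, adjusted p = 7.86e-06), whereas E2F4 fell by 0.61 (SE 0.04, adjusted p = 1.70e-06). RBL2 stood at 0.57 without the third untreated library and E2F4 at -0.58 without the first dox library, and with effective lengths as offsets they stood at 0.58 and -0.56, all under the fold limit. In MIA PaCa-2 edgeR called 0 of 11 (4 at an unadjusted p under 0.05, 0 by DESeq2, and 1 with effective lengths as offsets), beside 12% of all genes. The difference between the lines was called for 3 of 11, beside 10.4% of all genes. The medians were 0.08 and 0.02.

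The 10 proliferation markers, among them MKI67, had 0 calls by edgeR in either line, beside 16.3% (Pa-Tu-8902) and 12% (MIA PaCa-2) of all genes tested. In Pa-Tu-8902, 7 had an unadjusted p under 0.05 and the median was -0.20, and in MIA PaCa-2, 6 did and the median was 0.10. DESeq2 called 0 in each line. The difference between the lines was called for 0 by either tool (3 at an unadjusted p under 0.05 in edgeR), beside 10.4% of all genes by edgeR. Over all 167 genes of these lists, 39 of 154 tested were called in Pa-Tu-8902, 26 higher and 13 lower, and 24 of 151 in MIA PaCa-2, 11 higher and 13 lower. These calls were 25.3% and 15.9% of those tested, beside 16.3% and 12% of all genes tested. The difference between the lines was called for 28 of 155, beside 10.4% of all genes.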

How the data were processed

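RNA was sequenced from 12 libraries with a strand-keeping poly(A) kit. Per the labels, reads were trimmed with Trimmomatic 0.39 and quantified with RSEM 1.3.1 calling STAR 2.5.2a on GRCh38. The authors deposited, per gene and transcript (GENCODE 29), expected counts, which are estimated counts before any normalization, TPM, which is scaled to the same sum in each library and corrected for length, and effective lengths (a number of another kind, in bases). The deposited FPKM columns and per-sample transcript tables, and the study's own fold changes, were not used. Of the expected counts, 5.34% were not whole.

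After rounding, TMM factors were computed and edgeR 4.0.16 (R 4.3.3) gave quasi-likelihood tests on the expected counts within each line, between the untreated lines (for the 10 genes as a description), and for the difference of the dox changes over 12 libraries. A gene entered where 3 or more libraries of the comparison had 10 or more counts, and p-values were Benjamini-Hochberg adjusted over all of them. Normalized counts are scaled to a common library size. Transcript shares use TPM, for genes averaging at least 1 TPM, with exact permutation tests. The scripts were tested on simulated data. Positions are of GENCODE 44 on the same build, matched by Ensembl identifier. Total counts ranged from 26226537 to 43406137, and 3 counts equal 0.0691 to 0.114 CPM.

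The 10 genes and the lists were chosen with earlier results of these data known. Named were the 10 genes, all paralogs, in each other list the 2 called genes with the largest rise and the 2 with the largest fall in each line, the 2 genes most correlated with each of TP53INP1, PDCD4 and PIK3R3 (mean of at least 100 normalized counts), and GOT1. Where 2 rows shared a symbol, the larger was used. Alternatives were DESeq2 1.42.0, its size factors, no filter, other thresholds, effective lengths as offsets, 1 fit of all libraries, a replicate block, and leaving out each library. Same-numbered libraries deviated together with correlations of -0.0935 to 0.139 over 6 pairs, so numbers were not taken to pair them.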

Additional observations from a re-analysis of the deposited data

Results flagged for a closer look

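For genes of the lists, the change with dox differed between the lines in a direct test of that difference (edgeR, Pa-Tu-8902 minus MIA PaCa-2, log2 scale). Of the 28 list genes called, those 18 are given that the naming rule covers. The signed difference was above 0 for TNFSF10 (3.48), GDF15 (2.66), INSR (1.88), CASTOR1 (1.24), ERBB3 (1.16), FOXO4 (1.12), ARRDC3 (1.07), PIK3R1 (0.95), CCNG1 (0.72), TP53INP2 (0.70), E2F5 (0.67), RBL2 (0.63) and GABARAPL1 (0.59). It was below 0 for PHLPP2 (-0.95), FAS (-0.86), E2F4 (-0.62), SKP2 (-0.62) and INPP4B (-0.59). The sign does not say in which line a gene changed more. TNFSF10 rests on few counts, with 15.3 ± 10.0 normalized counts in untreated MIA PaCa-2 libraries, and GDF15 stood at 11.3 ± 3.0 in MIA PaCa-2 with dox. The differences of TNFSF10 and GDF15 are therefore a description and are not read as tests. With effective lengths as offsets the differences of INSR (1.24, adjusted p = 0.129), FOXO4 (0.88, adjusted p = 0.104), FAS (-0.75, adjusted p = 0.0228), E2F4 (-0.56) and RBL2 (0.55) were no longer called. INPP4B was under the fold limit with DESeq2 (-0.57), with its size factors (-0.57), with no filter (-0.56) and without single libraries (-0.51 to -0.58), as was GABARAPL1 without single libraries (0.55). A replicate block ended the call of E2F5 (0.66, adjusted p = 0.0138). Leaving out 1 library ended those of CASTOR1 without the second untreated Pa-Tu-8902 library (0.92, adjusted p = 0.0106), RBL2 without the first untreated MIA PaCa-2 library (0.56), FAS without the first MIA PaCa-2 dox library (-0.66, adjusted p = 0.0116) and E2F5 without the second library of either MIA PaCa-2 group (0.54 and 0.60).

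Among the 10 genes, every Pa-Tu-8902 library with dox lay above every untreated one and every MIA PaCa-2 library with dox lay below, by normalized counts, for CCNG2 and PIK3IP1. Their log2 changes differed by 1.67 and 1.65. These differences were not tested, since the changes in Pa-Tu-8902 entered the choice of the genes. The TPM of CCNG2 overlapped between the groups in MIA PaCa-2, and that of PIK3IP1 in Pa-Tu-8902.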

How the results depend on the processing

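No call among the 10 genes in MIA PaCa-2 depended on the tool, the normalization, the filter, the length offset or a single library. PDCD4 and FOXO3 passed in each of those settings, and at a fold of at least 2 neither did, which left 0 (edgeR; 6 of 9 at an unadjusted p under 0.05, PIK3IP1 included, and 0 by DESeq2 at that fold). With an adjusted p under 0.05 and no fold limit, 4 were called, SESN1 and CCNG2 being added. In Pa-Tu-8902, 4 of 10 passed a fold of at least 2. The log2 fold change of TXNIP in MIA PaCa-2 ranged from -0.11 to 0.062 as single libraries were left out, turning positive without the first untreated one and never passing the test. With no fold limit and an adjusted p under 0.05, list genes called numbered 99 (Pa-Tu-8902), 79 (MIA PaCa-2) and 65 for the difference between the lines, and at a fold of at least 2, 13, 10 and 9. The share of all genes called was then 51.0%, 41.9% and 26.8%, and 7.43%, 4.61% and 5.06%. With no filter on low counts, which adds genes that cannot be called, it was 10.5% in Pa-Tu-8902, 38.5% between the untreated lines and 6.72% for the difference. The 2 genes whose leading transcript share did not overlap in MIA PaCa-2 became 1 with shares of expected counts, and ranged from 2 to 4 when 1 library was left out. It was 4 without the third untreated library, and the cause was not tested. Among the named list genes, some calls within a line were lost on the adjusted p in an alternative. In Pa-Tu-8902 these were INSR (adjusted p = 0.449 with effective lengths as offsets) and KLF15. In MIA PaCa-2 they were FAS (adjusted p up to 0.0605), CYFIP2 (up to 0.0251), ERBB3 (0.0196 with those offsets) and KLF15 (0.0114 without the second dox library). Among values of single genes and lists, 1514 kept direction and side of the thresholds, 98 no longer passed (40 of them at a fold of at least 2), 3 newly passed and 38 counts or values without a test moved.

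The replicate numbers did not pair the libraries (3 of 6 pairs correlated best with their own number). With a replicate block, 7 of the 10 genes passed in Pa-Tu-8902 and 2 were called in MIA PaCa-2, and list genes called numbered 38, 23 and 26. The block ended the calls of KLF15 in Pa-Tu-8902 and FAS in MIA PaCa-2, and that of E2F5 for the difference. Depth limits what can be said of SESN3 in MIA PaCa-2 and of PIK3IP1 and TP53INP1 at low counts.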
